A study of Mus musculus with 4 samples.

Results

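The TRAV11 family comprises the mouse TCRα variable segments TRAV11, TRAV11D and TRAV11N, and this section describes their use in splenic CD4 T cells. Its clones were those whose best scoring V segment, as listed first for the clone and taken without the allele, was a member of the family. The rule found 2647 of 189388 TCRα clones, which held 11883 reads. Of these clones, 2614 covered a CDR3, and merging the clones of a library with the same J segment and the same CDR3 nucleotide sequence gave 2337 rearrangements.

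The study asked whether loss of the dioxygenases TET2 and TET3, which oxidise 5-methylcytosine in DNA, changes the TCR repertoire of CD4 T cells. TCR SMART-seq libraries from 2 wild type (WT) mice and 2 Tet2/3 DKO mice (Tet2-/- Tet3flx/flx CD4Cre) were used. The mice were young and matched for sex and age, C57BL/6 being the wild type strain, and the cells were live CD4+ TCRβ+ spleen cells from which CD25 expressing cells and αGalCer-CD1d tetramer binding cells had been excluded by sorting. In the Tet2/3 DKO mice Tet2 is absent from every cell, whereas Tet3 is deleted by a Cre recombinase under Cd4 control from the stage at which thymocytes carry CD4. The TCRα locus thus rearranges in cells that lack TET2. The paper states that TET3 is also deleted at the stage of this rearrangement. There the oxidised base 5-hydroxymethylcytosine was, by its account, much lower than in wild type but still detectable.

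In mouse invariant natural killer T (iNKT) cells a TRAV11 family segment is joined to TRAJ18 with a CDR3 of fixed amino acid sequence, and the resulting TCR recognises glycolipids such as αGalCer on CD1d. The same V segments can join other TRAJ segments and then take part in the conventional repertoire, which is selected on peptide and MHC. A TCRα join that shifts the reading frame gives no chain, yet its transcript can remain in a cell whose other allele carries a working join.

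The files held 172506 and 216457 TCRα reads in 39463 and 48790 clones for WT, and 195046 and 287799 reads in 47291 and 53844 clones for Tet2/3 DKO. Family reads numbered 2787 and 2956 in WT libraries and 2720 and 3420 in Tet2/3 DKO. Molecular identifiers were not used, which makes reads copies made by PCR, and intervals given here cover counting error only. Fewer cells with a chain and less RNA of that chain per cell cannot be told apart in these bulk samples. With 2 libraries per genotype, an exact two-sided permutation test cannot give a p-value below 0.333. Within-library contrasts were tested by an exact two-sided sign-flip permutation test over the 4 libraries, which cannot go below 0.125. Its 25 contrasts gave Benjamini-Hochberg adjusted p-values of 0.184 or more.

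The 3 members lie in copies of one stretch of the locus on chromosome 14. In GRCm38, the assembly called mm10, Trav11d is at chr14:52824357-52824913, Trav11n at chr14:53135122-53135678 and Trav11 at chr14:53519303-53519859, each annotated in RefSeq as a V segment of 557 bp. Trav11d is farthest from Traj18 (chr14:54200777-54200842), at 1375.86 kb, followed by Trav11n at 1065.1 kb and Trav11 at 680.918 kb. Framework region 1 and CDR1 are shown because framework region 1 holds the base that separates a working copy from a nonworking copy. Capitals mark the bases that differ.
TRAV11: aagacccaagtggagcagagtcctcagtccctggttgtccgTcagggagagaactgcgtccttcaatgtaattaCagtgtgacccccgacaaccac
TRAV11N: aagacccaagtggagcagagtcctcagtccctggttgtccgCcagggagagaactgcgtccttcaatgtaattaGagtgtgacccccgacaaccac

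Over the 267 bases from framework region 1 to framework region 3, the TRAV11 and TRAV11N sequences of these libraries differed at 6 positions, an identity of 97.8%. Positions are counted from 1 at the first base of framework region 1, with the TRAV11 base given first. C75G turns the tyrosine codon 25 into a stop codon in framework region 1. G154C in CDR2 replaces aspartate by histidine and A203G in framework region 3 replaces lysine by arginine, while T42C, C138A and T177C leave the amino acid as it is. The stop codon was read in 406 of 407 TRAV11N clones that covered framework region 1 in full, and in 1 of 2230 TRAV11 clones. With that 1 exception, the TRAV11N clones carry a stop codon ahead of the CDR3, whatever the frame of the join.

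TRAV11 was listed first in 2239 clones, and all 2239 listed TRAV11D with the same score. TRAV11D was never listed first. TRAV11 and TRAV11D thus cannot be told apart in these libraries, and they are written here as TRAV11/TRAV11D. TRAV11N was listed first in 408 clones, of which 1 listed a further family member, and 0 clones outside the family listed a member of it.

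TRAV11/TRAV11D made up most of the family in every library. It held 1.42% and 1.20% of TCRα reads in WT libraries, and 1.18% and 1.06% in Tet2/3 DKO. The lowest WT library lay just above the highest Tet2/3 DKO library. In edgeR's quasi-likelihood test over 101 V segments the log2 fold change was -0.23 (SE 0.17, adjusted p = 0.972). TRAV11N held 0.196% and 0.169% of TCRα reads in WT libraries and 0.213% and 0.132% in Tet2/3 DKO, so that its highest and its lowest library were both Tet2/3 DKO. Its log2 fold change was -0.08 (SE 0.35, edgeR adjusted p = 0.972). edgeR called 0.0% of the 101 segments (0 segments, 3 at an unadjusted p under 0.05), and DESeq2 also called 0 segments, with 3 at an unadjusted p under 0.05. TRAV11N, the copy with the stop codon, took 12.1% and 12.3% of the family reads in WT libraries and 15.3% and 11.1% in Tet2/3 DKO.

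**Figure D1:**
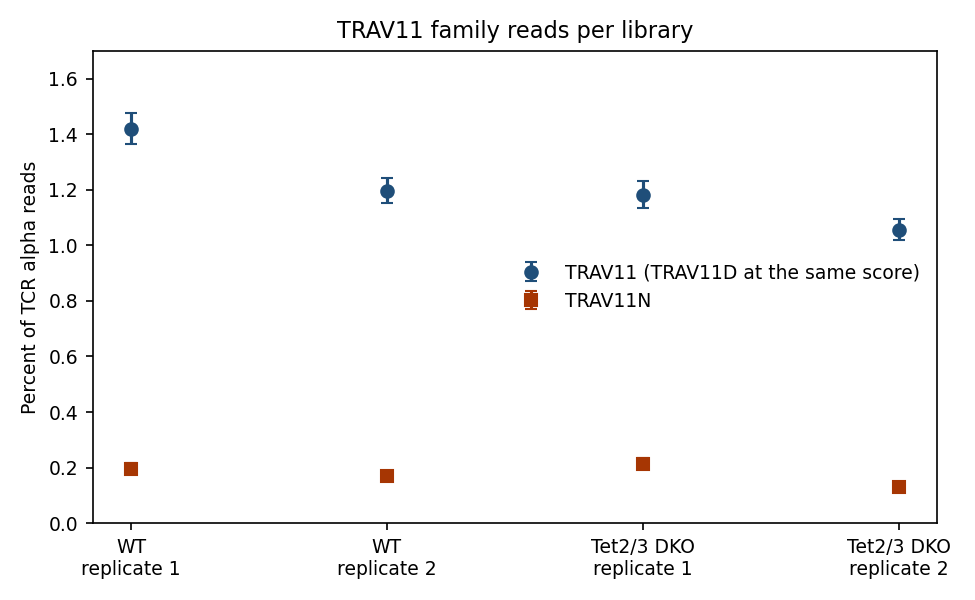
Share of TCRα reads (percent, vertical axis) held by TRAV11/TRAV11D (circles) and TRAV11N (squares) in each of the 4 libraries (horizontal axis), with 95% Wilson intervals for counting error. TRAV11/TRAV11D runs from 1.06% to 1.42% and TRAV11N from 0.132% to 0.213%.

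Family joins were out of frame far more often than TCRα joins in general. An open CDR3 (in frame and without a stop codon) was found in 68.7% and 64.4% of TRAV11/TRAV11D rearrangements in WT libraries, and in 64.2% and 62.4% in Tet2/3 DKO. All other TCRα rearrangements were open in 85.0% and 85.7% in WT libraries and in 85.4% and 85.2% in Tet2/3 DKO. The TRAV11/TRAV11D share was thus lower in 4 of 4 libraries, with means of 64.9% ± 2.65 (SD, n = 4) against 85.3%, at the smallest p the exact sign-flip permutation test can give (p = 0.125). Over the 4 libraries 1293 of 1993 TRAV11/TRAV11D rearrangements were open (95% Wilson interval 62.8% to 66.9%), 695 were out of frame and 5 were in frame with a stop codon. For the whole family the open share was 62.5% and 60.0% in WT libraries and 59.1% and 57.9% in Tet2/3 DKO, lower in both without overlap (difference -2.78 percentage points, exact permutation test, p = 0.333). Without WT replicate 1 the difference was -1.56 points, and without WT replicate 2 -4.00 points. The open share was 64.9% and 66.2% against 64.8% and 67.2% when weighted by reads. The TRAV10 and TRAV14 families, which also have D and N copies, were open in 91.2% and 91.7% of rearrangements over the same libraries.

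In TRAV11N, whose clones carry a stop codon ahead of the CDR3, 22.7% and 32.1% of rearrangements were open in WT libraries and 35.3% and 30.2% in Tet2/3 DKO. Every library lay below the lowest value of TRAV11/TRAV11D, at means of 30.1% and 64.9% (exact sign-flip permutation test, p = 0.125, n = 4). Pooled, 105 of 344 TRAV11N rearrangements were open (95% Wilson interval 25.9% to 35.6%) and 69.2% were out of frame. The 86 V segments with at least 100 rearrangements, which include segments named TRDV, had a median open share of 84.9%. Among them TRAV11N had the second lowest open share, after TRAV4D-2 at 25.4%, and TRAV11/TRAV11D ranked 12 from the lowest.

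Open TRAV11/TRAV11D rearrangements also held more reads each than those without an open CDR3. They averaged 5.26 and 5.48 reads in WT libraries and 5.20 and 6.77 reads in Tet2/3 DKO, against 4.60 and 3.99 in WT libraries and 4.17 and 4.38 in Tet2/3 DKO for the others, which puts the open ones ahead in 4 of 4 libraries. This contrast was not tested. The order was the same in all other TCRα rearrangements, so it is not particular to the family. Their open rearrangements averaged 5.49 and 5.66 reads in WT libraries and 5.21 and 7.04 in Tet2/3 DKO. Those without an open CDR3 averaged 3.46 and 3.73 in WT libraries and 3.58 and 4.49 in Tet2/3 DKO. In TRAV11N the order was not the same across libraries. Open TRAV11N rearrangements averaged 3.18, 3.92 and 3.73 reads in the WT libraries and Tet2/3 DKO replicate 2, below the 4.76, 4.51 and 4.40 reads of the others, and 4.39 reads against 3.62 in Tet2/3 DKO replicate 1.

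**Figure D2:**
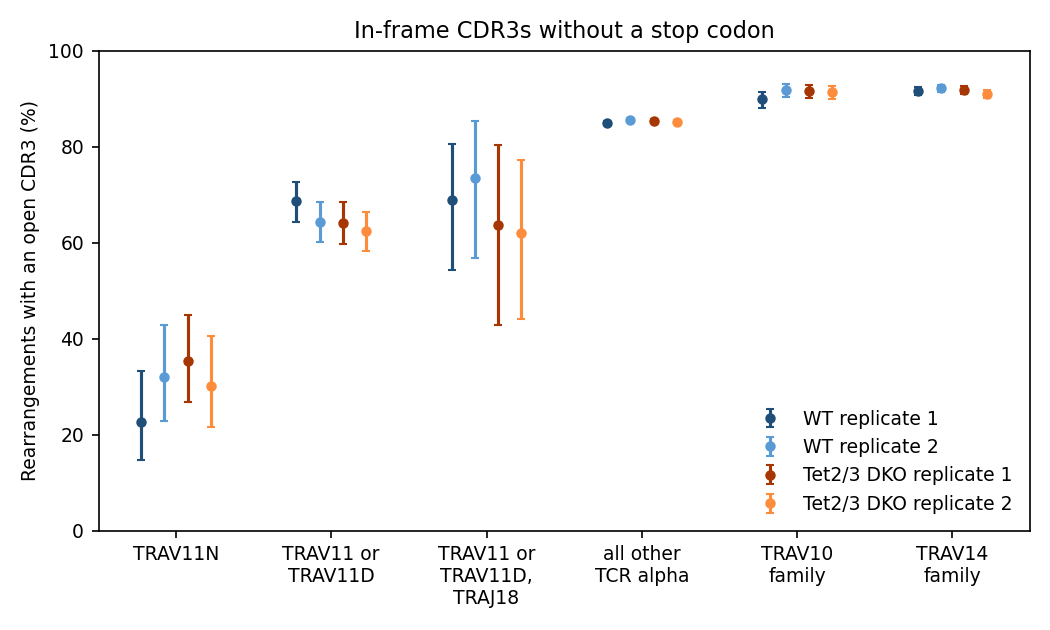
Share of rearrangements with an open CDR3 (percent, vertical axis) per library, with 95% Wilson intervals for counting error, for TRAV11N, for TRAV11/TRAV11D with any partner and with TRAJ18, for all other TCRα rearrangements and for the TRAV10 and TRAV14 families. TRAV11N lies between 22.7% and 35.3%, TRAV11/TRAV11D between 62.4% and 68.7%, and all other TCRα rearrangements between 85.0% and 85.7%.

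Family segments were joined to 36 of the 44 TRAJ segments found in the libraries, 28 of them in every library. TRAJ27 had the largest mean share of family reads, although TRAJ26 and TRAJ39 held more in WT replicate 1. It held 9.26% and 14.7% of family reads in WT libraries and 17.1% and 13.8% in Tet2/3 DKO, against a mean of 4.78% of all other TCRα reads. TRAJ32 followed, with 8.43% and 9.24% in WT libraries and 10.8% and 8.60% in Tet2/3 DKO, against 2.09% elsewhere. These 2 partners exceeded their share among all other TCRα reads in each library, and the genotypes overlapped for both.

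TRAJ26 held 11.9% and 3.99% of family reads in WT libraries and 8.35% and 5.88% in Tet2/3 DKO, against a mean of 3.62% elsewhere. TRAJ39 held 9.47% and 4.87% in WT libraries and 7.06% and 3.57% in Tet2/3 DKO, against 2.69% elsewhere. TRAJ34 held 8.43% and 4.23% in WT libraries and 6.36% and 5.70% in Tet2/3 DKO, against 3.60% elsewhere. WT replicate 1 was the highest library for all 3 of these segments by reads, with single clones holding 188 of its 264 TRAJ39 reads and 122 of its 235 TRAJ34 reads. By rearrangements it was the lowest library for TRAJ39, at 3.77% against 4.79% to 6.41% in the others, and for TRAJ34, at 5.21%, it lay below both Tet2/3 DKO libraries.

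Counting each rearrangement once left the same partners ahead of their use elsewhere. TRAJ27 made up 12.4% of family rearrangements and 4.42% of all others, TRAJ32 10.5% and 2.53%, and TRAJ26 7.53% and 3.13%. For TRAJ39 the means were 5.08% and 2.87%, and for TRAJ34 5.98% and 3.84%. These 5 partners were named for their large share in the family, so the excess over other TCRα rearrangements is a description and was not tested.

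These partners were found in both open and other joins of TRAV11/TRAV11D. TRAJ27 made up 13.1% of open rearrangements (range 10.9% to 13.9%) and 12.4% of the others (range 10.6% to 15.9%). TRAJ32 made up 10.1% of the open (8.85% to 11.1%) and 13.9% of the other rearrangements (9.23% to 18.8%), higher among the latter in 3 of 4 libraries (exact sign-flip permutation test, p = 0.25). Among all other TCRα rearrangements TRAJ32 likewise made up 2.01% of the open and 5.56% of the other joins. For TRAJ34 the shares were 6.83% and 5.65%, higher among open joins in 3 of 4 libraries (p = 0.25, exact sign-flip permutation test). For TRAJ18, TRAJ26, TRAJ27 and TRAJ39 the same test gave p-values from 0.375 to 0.75, which do not show that the shares are equal.

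TRAV11N reached partners nearer to the constant region than TRAV11/TRAV11D did. TRAJ segments are numbered downward from the V side, so a low number lies near the constant region. The mean TRAJ number of TRAV11N rearrangements was 21.1 and 24.0 in WT libraries and 21.4 and 19.1 in Tet2/3 DKO, against 27.9 and 29.4 in WT libraries and 29.4 and 28.1 in Tet2/3 DKO for TRAV11/TRAV11D. The ranges did not overlap (exact sign-flip permutation test, p = 0.125, n = 4). All other TCRα rearrangements averaged 29.4.

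**Figure D3:**
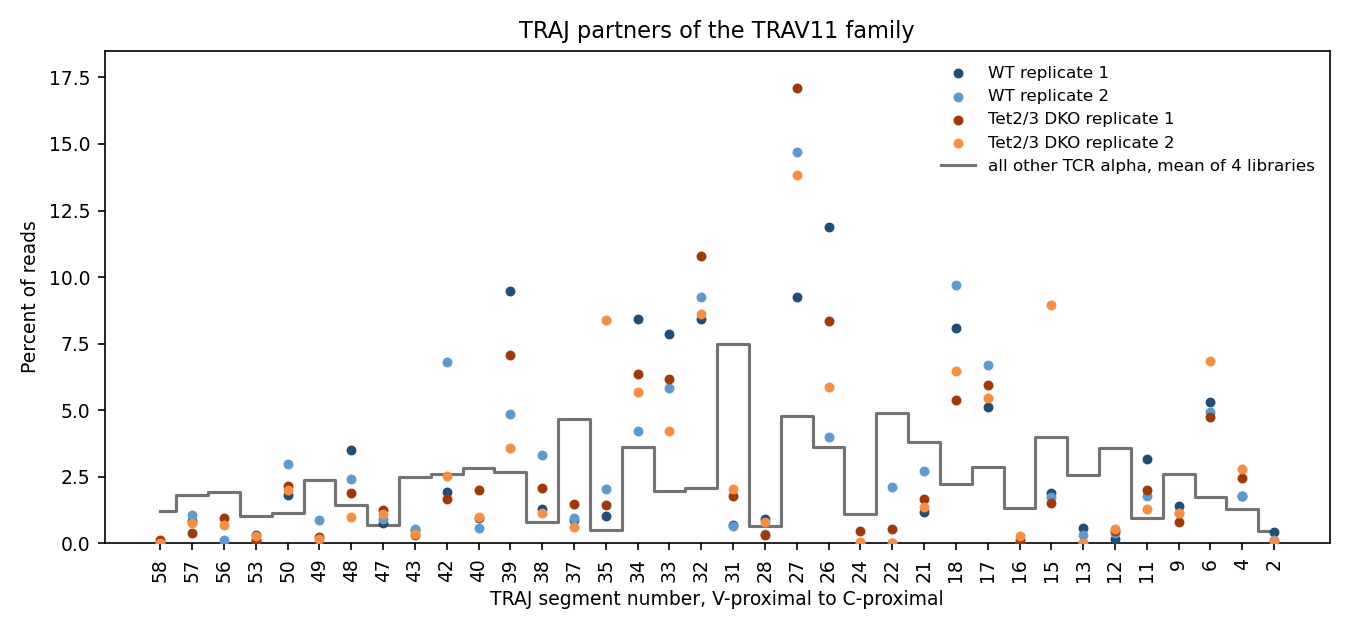
Share of family reads joined to each TRAJ segment (percent, vertical axis) in the 4 libraries (points), with the TRAJ segments along the horizontal axis ordered from the V side to the constant region side and the mean share among all other TCRα reads as a grey line. TRAJ27, at 9.26% to 17.1%, is the highest partner on average, and the points of TRAJ32 and TRAJ18 all lie above the line.

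No use of a family partner was called different between the genotypes. Of 814 pairs of a V family and a TRAJ segment, edgeR called 0.0% (0 pairs, 37 at an unadjusted p under 0.05). DESeq2 called 0 with 39 at an unadjusted p under 0.05. Of the 35 family pairs tested, 0 were called and 3 had an unadjusted p under 0.05, those with TRAJ18, TRAJ13 and TRAJ56, of which TRAJ13 and TRAJ56 were singled out after their values were seen. The median log2 fold change was -0.39 over the family pairs and -0.03 over all pairs, and it was the same where a group without reads was set to 3 reads, as for 2 family pairs. Without Tet2/3 DKO replicate 1, edgeR called 28 pairs, 3 of them of the family, those with TRAJ15, TRAJ22 and TRAJ35. In that fit Tet2/3 DKO is a lone library, assumed to vary as the WT libraries do, and single clones held 186 of its 306 TRAJ15 reads and 250 of its 287 TRAJ35 reads. TRAJ22 had 0 reads in that library and in WT replicate 1, and 63 in WT replicate 2, of which 51 came from 1 clone. In 6 of the 35 family pairs both Tet2/3 DKO libraries lay above both WT libraries, against 15.2% of all pairs, and in 8 both lay below, against 16.0%.

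The part of the family joined to TRAJ18 was lower in both Tet2/3 DKO libraries. It held 0.130% and 0.133% of TCRα reads in WT libraries and 0.0749% and 0.0768% in Tet2/3 DKO. The genotypes did not overlap, with means of 0.132% ± 0.00153 (SD, n = 2) and 0.0758% ± 0.00137 (SD, n = 2), a log2 ratio of -0.79 at the smallest p the exact permutation test can give (p = 0.333, adjusted over 10 comparisons 0.556). In edgeR the log2 fold change of the pair was -0.79 (SE 0.35, unadjusted p = 0.0496, adjusted p = 0.875), so it did not pass the threshold. The adjusted p of this pair was between 0.578 and 1.00 over 13 alternatives, which included leaving out each library.

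The remainder of the family, joined to any other TRAJ segment, held 1.49% and 1.23% in WT libraries and 1.32% and 1.11% in Tet2/3 DKO. Here the genotypes overlapped (log2 ratio -0.16, exact permutation test, p = 0.667). With each library left out, this log2 ratio ranged from -0.29 to -0.021. TRAJ18 joined to V segments outside the family held 2.25% and 2.16% of TCRα reads in WT libraries and 2.22% and 2.13% in Tet2/3 DKO, again with overlap. Within the family, TRAJ18 took 8.07% and 9.71% of reads in WT libraries and 5.37% and 6.46% in Tet2/3 DKO (log2 ratio -0.59, exact permutation test, p = 0.333).

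The TRAJ18 reads of the family numbered 225 and 287 in WT libraries and 146 and 221 in Tet2/3 DKO. They came from 51 and 41 rearrangements in WT libraries and 29 and 42 in Tet2/3 DKO, and as a share of family rearrangements TRAJ18 made up 9.16% and 6.86% in WT libraries and 5.03% and 6.94% in Tet2/3 DKO. On this count the genotypes overlapped, since Tet2/3 DKO replicate 2 lay above WT replicate 2. Without the iNKT chain, TRAJ18 reads of the family held 0.111% and 0.0998% of TCRα reads in WT libraries and 0.0677% and 0.0726% in Tet2/3 DKO (log2 ratio -0.59, exact permutation test, p = 0.333). TRAJ18 reads in family clones whose CDR3 was not open held 0.0359% and 0.0291% in WT libraries and 0.0195% and 0.0295% in Tet2/3 DKO. In this set, which leaves out clones without a CDR3, the genotypes overlapped (log2 ratio -0.41, exact permutation test, p = 0.667). Of all TRAJ18 reads of the family, those with an open CDR3 numbered 163 and 206 in WT libraries and 105 and 136 in Tet2/3 DKO.

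**Figure D4:**
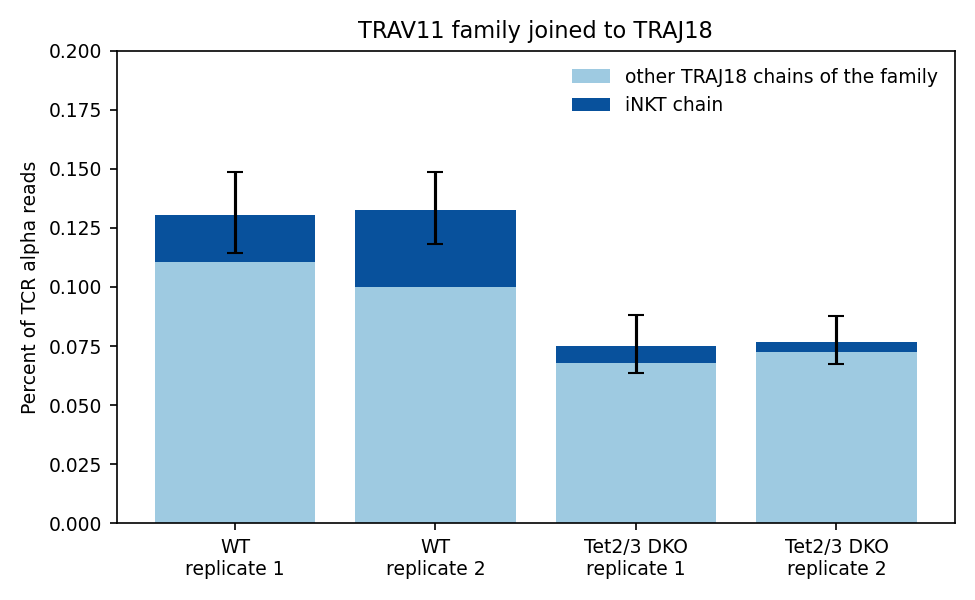
Share of TCRα reads (percent, vertical axis) in TRAV11 family clones joined to TRAJ18 in each of the 4 libraries, divided into the iNKT chain (dark) and other chains (light), with 95% Wilson intervals of the total for counting error. The bars reach 0.130% and 0.133% in WT libraries and 0.0749% and 0.0768% in Tet2/3 DKO.

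The high share of TRAJ18 in the family was not limited to open joins. TRAJ18 made up 9.37% and 7.51% of open TRAV11/TRAV11D rearrangements in WT libraries and 4.59% and 5.56% in Tet2/3 DKO, against a mean of 2.21% of all other open TCRα rearrangements. Among TRAV11/TRAV11D rearrangements that were not open, it made up 9.27% and 4.89% in WT libraries and 4.71% and 5.64% in Tet2/3 DKO, against 2.08% elsewhere. Both shares exceeded those of other TCRα rearrangements in 4 of 4 libraries (exact sign-flip permutation test, p = 0.125 for each). TRAV11N, the copy with the stop codon, was joined to TRAJ18 in 6.86% to 15.1% of its rearrangements.

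The iNKT chain was encoded by 4 nucleotide sequences of 45 bases, shown because they differ at a single base. The capital marks base 12 of the CDR3, the last base of the codon at the junction of V and J, where each of the 4 bases gives glycine.
iNKT variant A: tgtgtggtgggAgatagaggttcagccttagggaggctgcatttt
iNKT variant C: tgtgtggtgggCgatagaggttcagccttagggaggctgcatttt
iNKT variant G: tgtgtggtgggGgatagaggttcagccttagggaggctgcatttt
iNKT variant T: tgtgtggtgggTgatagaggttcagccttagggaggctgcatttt

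Variant C was the most frequent, with 14 and 40 reads in WT libraries and 0 and 8 in Tet2/3 DKO. It needs no inserted base, with the V end untrimmed and 3 bases removed from TRAJ18. Variant A, which also needs no inserted base, had 0 and 13 reads in WT libraries and 8 and 0 in Tet2/3 DKO. Variants G and T need 1 inserted base each. Variant G had 15 and 11 reads in WT libraries and 6 and 0 in Tet2/3 DKO. Variant T had 5 and 7 reads in WT libraries and 0 and 4 in Tet2/3 DKO. WT libraries thus held 3 and 4 variants and Tet2/3 DKO libraries 2 each, and no variant was found in both Tet2/3 DKO libraries.

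The iNKT chain held 34 and 71 reads in WT libraries and 14 and 12 in Tet2/3 DKO. This was 1.22% and 2.40% of family reads in WT libraries and 0.515% and 0.351% in Tet2/3 DKO, without overlap (log2 ratio -2.06, exact permutation test, p = 0.333, n = 2 per genotype). The log2 ratio was -0.73 with each clone counted once and -1.05 for all TRAJ18 joins of the iNKT length. Since αGalCer-CD1d tetramer binding cells were excluded by the sort, these reads measure what was left in the sorted cells. How completely the sort removed such cells in each library was not tested.

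Most open TRAJ18 joins of the family did not encode the iNKT chain. Beside the iNKT chain, these joins encoded 53 different CDR3 amino acid sequences, of which 42 were found in 1 library and 3 in all 4 libraries. The iNKT chain held 131 of the 610 reads of open TRAJ18 joins, and 11 of the 98 open rearrangements summed over libraries. Of these 98 rearrangements, 44 had the iNKT length of 15 residues. The most abundant nucleotide sequences of 3 other CDR3s are shown. Among the CDR3s found in 3 or more libraries, these had the most reads after the iNKT chain. Capitals mark inserted bases.
TRAJ18 join 1: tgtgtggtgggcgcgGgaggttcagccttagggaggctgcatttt
TRAJ18 join 2: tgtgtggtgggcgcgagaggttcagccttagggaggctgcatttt
TRAJ18 join 3: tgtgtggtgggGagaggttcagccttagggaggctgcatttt

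The CDR3 encoded by TRAJ18 join 1 came from 6 nucleotide sequences and held 18 and 14 reads in WT libraries and 13 and 13 in Tet2/3 DKO. It was thus found in every library. The CDR3 of join 2, from 3 nucleotide sequences, held 0 and 19 reads in WT libraries and 10 and 22 in Tet2/3 DKO. The CDR3 of join 3, which is 1 residue shorter than the iNKT chain, held 8 and 27 reads in WT libraries and 2 and 10 in Tet2/3 DKO. The largest clone with TRAJ18 had 15 and 40 reads in WT libraries and 13 and 28 in Tet2/3 DKO. In WT replicate 1 it encoded iNKT variant G and in WT replicate 2 iNKT variant C. In Tet2/3 DKO replicate 1 it encoded the same CDR3 as TRAJ18 join 1 and held all 13 reads of that CDR3, and in Tet2/3 DKO replicate 2 it encoded a further CDR3. Inserted bases are in capitals.
Tet2/3 DKO replicate 1: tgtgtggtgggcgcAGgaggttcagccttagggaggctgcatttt
Tet2/3 DKO replicate 2: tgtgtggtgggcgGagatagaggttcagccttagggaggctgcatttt

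Family CDR3s were longer with TRAJ18 than without it, and longer than the CDR3s of other V segments both with TRAJ18 and overall. With TRAJ18 the open CDR3s averaged 15.1 residues (14.9 to 15.2 over libraries), and 44.5% had 15 residues and 32.4% had 16. With the other partners the mean was 13.7 and 13.8 residues in WT libraries and 13.8 and 13.8 in Tet2/3 DKO, and the most frequent length was 14 residues, at 34.9%. All other TCRα CDR3s averaged 13.5 residues, and those among them with TRAJ18 averaged 14.6 (14.5 to 14.7 over libraries). The length with TRAJ18 exceeded that without it and that of other V segments with TRAJ18 in 4 of 4 libraries, and the length without TRAJ18 exceeded that of all other TCRα in 4 of 4 libraries (exact sign-flip permutation test, p = 0.125 for each). The genotypes overlapped in the mean length without TRAJ18, with a difference of 0.0394 residues (exact permutation test, p = 0.667), which was 0.00113 without WT replicate 1 and 0.0777 without WT replicate 2.

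**Figure D5:**
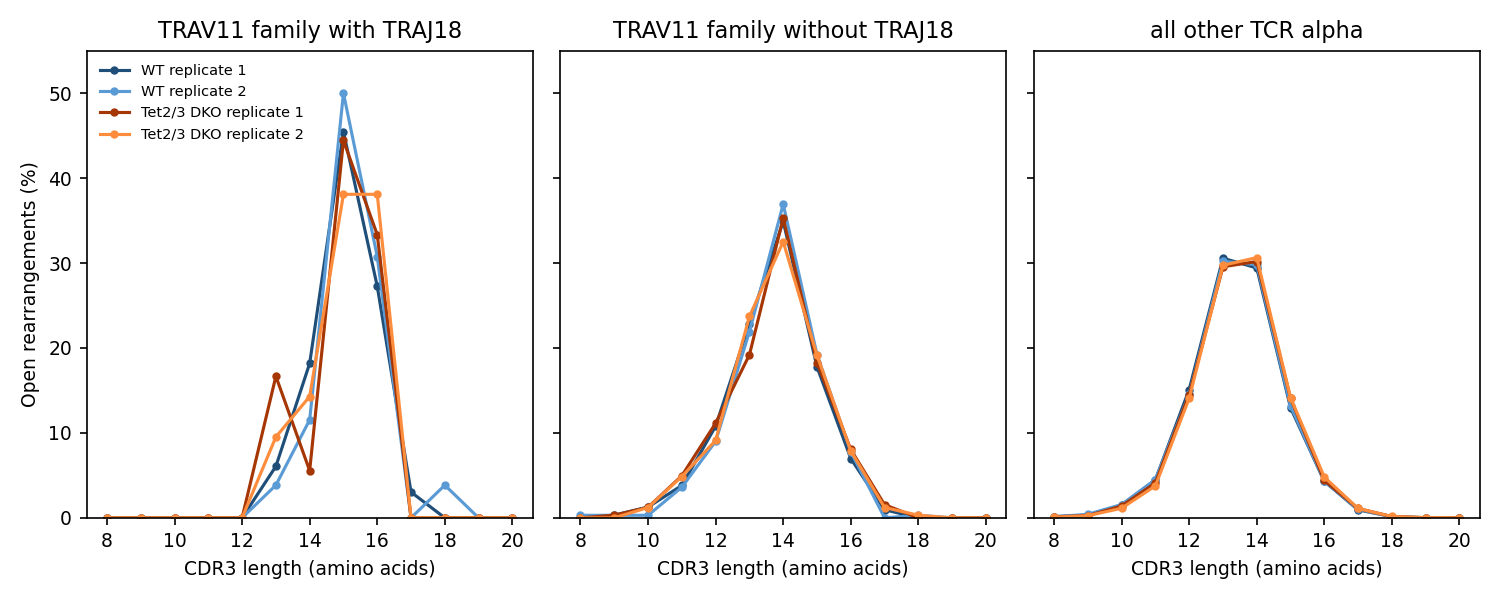
Distribution of CDR3 length in amino acids (horizontal axis) as percent of open rearrangements (vertical axis), each rearrangement counted once, for the TRAV11 family with TRAJ18, the family without TRAJ18 and all other TCRα, with a line per library. The mean share peaks at 15 residues (44.5%) with TRAJ18 and at 14 residues (34.9%) without it.

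Family joins held fewer inserted bases and kept more of the V end than other TCRα joins. The mean number of inserted bases was 1.74 and 1.80 in WT libraries and 1.85 and 1.84 in Tet2/3 DKO, against a mean of 2.41 in all other TCRα joins. No base was inserted in 33.2% and 31.1% of family joins in WT libraries and in 29.3% and 29.9% in Tet2/3 DKO, against 23.1% elsewhere. The V end lost a mean of 1.37 bases against 2.22 elsewhere, and it was untrimmed in 46.1% of family joins against 33.8%. Each of these measures differed in the same direction in 4 of 4 libraries (exact sign-flip permutation test, p = 0.125 for each).

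Trimming of the J end differed little, at 3.04 and 3.06 bases with the lower value in the family in 2 of 4 libraries (exact sign-flip permutation test, p = 0.75). The mean number of inserted bases was higher in both Tet2/3 DKO libraries than in both WT libraries. The difference was 0.0749 bases (exact permutation test, p = 0.333), and 0.0452 bases without WT replicate 1. Weighted by reads, it turned to -0.0404 bases and the genotypes overlapped. The germline end of the V segment gave the start CVVG in 79.5% and 78.7% of open TRAV11/TRAV11D CDR3s in WT libraries and in 79.3% and 79.0% in Tet2/3 DKO.

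Few family sequences recurred between mice. Of 2083 different combinations of TRAJ segment and CDR3 nucleotide sequence, 1886 were found in 1 library, 146 in 2, 45 in 3 and 6 in all 4. In all, 9.46% were found in at least 2 libraries, against 13.5% of the other TCRα sequences. The sets differ in frame: 56.6% of family sequences found in 1 library and 69.9% of those in 2 were open. Elsewhere these shares were 80.9% and 94.7%. Recurrence was not compared among open sequences alone. Sequences without inserted bases made up 24.2% of those found in 1 library, 51.4% of those in 2 and 66.7% of those in 3, and all 6 found in every library lacked inserted bases. Pairs of libraries shared 42 to 68 sequences, the most between WT replicate 1 and Tet2/3 DKO replicate 2 (12.2% and 11.2% of their sequences).

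The most abundant 5 of the 6 sequences found in every library are shown because they are the recurrent conventional joins of the family. None of them uses TRAJ18, and each keeps the whole V end.
TRAJ50 join: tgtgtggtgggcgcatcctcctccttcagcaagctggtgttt
TRAJ11 join: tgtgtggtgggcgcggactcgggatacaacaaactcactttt
TRAJ4 join: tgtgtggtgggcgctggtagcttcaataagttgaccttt
TRAJ26 join: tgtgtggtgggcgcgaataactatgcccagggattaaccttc
TRAJ27 join: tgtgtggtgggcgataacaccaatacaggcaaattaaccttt

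The TRAJ50 join had 5 and 9 reads in WT libraries and 9 and 9 in Tet2/3 DKO. The TRAJ11 join had 7 and 3 reads in WT libraries and 3 and 7 in Tet2/3 DKO, and the TRAJ4 join had 6 and 3 in WT libraries and 5 and 5 in Tet2/3 DKO. The TRAJ26 join had 3 and 2 reads in WT libraries and 8 and 3 in Tet2/3 DKO, and the TRAJ27 join had 4 and 4 in WT libraries and 6 and 1 in Tet2/3 DKO. These recurrent joins were thus present at 1 to 9 reads in any library, and the genotypes overlapped or met for each.

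The largest family clones, by contrast, were mostly found in 1 library. They are shown because they weigh on the read shares of their partners, again with the bases called as inserted in capitals. The TRAJ39 clone was called untrimmed at the V end and without inserted bases. It reads gggccc where the other untrimmed V ends shown read gggcg, so that call does not hold for every base of its join.
WT replicate 1, TRAJ39: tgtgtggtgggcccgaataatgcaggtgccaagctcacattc
WT replicate 2, TRAJ42: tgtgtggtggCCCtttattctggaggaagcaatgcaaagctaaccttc
Tet2/3 DKO replicate 1, TRAJ27: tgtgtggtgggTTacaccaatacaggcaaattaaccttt
Tet2/3 DKO replicate 2, TRAJ35: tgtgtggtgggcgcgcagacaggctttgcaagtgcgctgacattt

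The TRAJ39 clone had 188 reads, 6.75% of the family reads of WT replicate 1. The TRAJ42 clone had 51 reads, 1.73% of those of WT replicate 2, level with a TRAJ22 clone of that library. The TRAJ27 clone had 113 reads, 4.15% of those of Tet2/3 DKO replicate 1. None of these 3 sequences was found in another library. The TRAJ35 clone had 250 reads, 7.31% of the family reads of Tet2/3 DKO replicate 2. Its sequence, in which no base was called trimmed or inserted, had 259 reads in that library and 5 in WT replicate 1.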

How the data were processed

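Total RNA of sorted splenic CD4 T cells was profiled by a 5' RACE based TCR SMART-seq kit. The authors called bases with bcl2fastq 2.20.0, trimmed the output with fastp 0.21.0 and built clones with MiXCR. The genome build in the submitters' processing notes is mm10. The authors deposited, per library and chain, a read count for every clone together with the fraction it takes of the chain. All shares were computed from the deposited counts, after the deposited fraction had been checked against them. TCRβ tables were not used here, and the thymus and cell transfer libraries were not analysed here.

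The first listed V and J segments were used without alleles. Clones without a CDR3 stayed in read totals, but were left out of the set of clones whose CDR3 was not open. V sequences, inserted bases and trimming were read from the deposited clone sequences and reference points. Extra bases that the reference points assigned to the end of a V or J segment counted as neither inserted nor trimmed. Gene positions came from RefSeq (GRCm38.p6). An exact match of score between TRAV11 and TRAV11D was not resolved.

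Genotypes were compared in single values per library by enumerating the 6 label assignments (exact two-sided permutation test). Reads were counted per V segment and per pair of V family and TRAJ segment, with segments named TRDV included. Counts of at least 10 reads in total were tested over the whole table in edgeR 4.0.16 (quasi-likelihood, library size set to total reads). The Benjamini-Hochberg adjusted threshold was 0.05. DESeq2 1.42.0 was an alternative. On simulated data with 4-fold changes, 98.0% of changed segments (101 segments) and 99.7% of changed pairs (814 pairs) were recovered. Of the unchanged ones, 2.72% and 1.35% were called. Only features with many reads were changed, and the simulated spread was fixed in advance, not estimated from these libraries. Recovery of smaller changes, or of pairs with few reads such as many family pairs, was not tested. R 4.3.3, Python 3.11.15, numpy 2.4.6, pandas 2.3.3 and scipy 1.17.1 were used.

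Named were the family members, TRAJ18, the 5 other partners with the largest mean share, the variants of the iNKT chain, the largest clone of each library with and without TRAJ18, and up to 5 sequences without TRAJ18 found in all 4 libraries. Joins 1 to 3 with TRAJ18, TRAV4D-2, TRAJ13, TRAJ15, TRAJ22, TRAJ35 and TRAJ56 fall outside this rule and were picked with their values in view. The members and lists were chosen with earlier results of these data known. The alternatives covered minimum reads per clone, counting each clone once, downsampling, frame, normalization, filter, test, replicate block and each library left out. Leaving out TRAV11N, the iNKT chain, clones with an open CDR3 together with those without a CDR3, or the largest clone of each library was chosen after seeing the data. So were TRAJ18 joins alone for CDR3 length, the crossed replicate block, and the alternatives on inserted bases.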

Additional observations from a re-analysis of the deposited data

How the results depend on the processing

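The log2 ratio of the TRAJ18 part of the family kept its direction under each alternative run. It ranged from -0.92 (open clones) to -0.41 (clones with a CDR3 that was not open), and from -0.81 to -0.78 with each library left out. The whole family ranged from -0.22 to -0.13, and from -0.33 to -0.081 with each library left out. The iNKT chain ranged from -2.11 to -0.73, and from -2.47 to -1.50 with each library left out. Weighting by reads turned the difference in open share between the genotypes to 0.430 percentage points and that in inserted bases to -0.0404, and that in CDR3 length became -0.00761 residues with TRAJ18 included and -0.135 for TRAJ18 joins alone. With each library left out, these differences ranged from -4.00 to -1.56 percentage points, 0.0452 to 0.105 bases and 0.00113 to 0.0777 residues. Counting each clone once turned the log2 fold change of TRAV11N to 0.12, TRAJ26 to 0.057, TRAJ39 to 0.23 and TRAJ34 to 0.36, and open clones alone turned TRAJ34 to 0.20. Among pairs, 10 were called with no filter. Leaving out each library in turn gave 0 to 4 called segments and 0 to 28 called pairs. Without Tet2/3 DKO replicate 1, 4 segments and 28 pairs were called, 3 of them family pairs, and without Tet2/3 DKO replicate 2, 4 pairs. With each library left out, the log2 fold change ranged from -0.34 to -0.097 for TRAV11/TRAV11D and from -0.47 to 0.23 for TRAV11N. The ranges were -0.092 to 0.44 for TRAJ27, -0.36 to 0.20 for TRAJ32 and -1.05 to 0.77 for TRAJ26. They were -1.37 to 0.078 for TRAJ39 and -0.80 to 0.44 for TRAJ34. The causes were not tested.

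The labels number the replicates 1 and 2 in both genotypes, but nothing ties same-numbered mice. Deviations of same-numbered libraries correlated at 0.0942 over 101 segments and -0.126 over 814 pairs. With the replicate number as a block, edgeR called 0 segments and 3 pairs, of which 0 were family pairs. With the numbers crossed, it called 0 segments and 0 pairs.

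Depth limits single joins: the 6 family sequences found in all 4 libraries held 1 to 9 reads in each. Labels of biological replicates do not say whether mice shared a litter, so the edgeR and DESeq2 p-values rest on the spread between these mice only. The exact tests count label or sign assignments of these libraries, and their smallest p-values are set by the number of libraries.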
